A study of Mus musculus with 6 samples.

Results

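The interferon regulatory factors (IRFs) are transcription factors that carry interferon signals to the genome and switch on the interferon genes themselves. The 8 genes described here are Irf1, Irf2, Irf3, Irf4, Irf5, Irf7, Irf8 and Irf9, taken by name from a fixed list. That list was chosen with earlier results of these data known. Each gene was read from 1 probe set, the brightest by mean of the 6 arrays among those that the platform annotation pairs with a single symbol. All 8 were measured, of 19938 genes in all, and no filter on dim values was applied. Of the 8 genes, 5 rose in cells labelled as coming from miR-188 knockout mice (Irf7, Irf9, Irf1, Irf5 and Irf2), 0 fell, and Irf3, Irf4 and Irf8 did not pass the test.

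Affymetrix arrays measured messenger RNA in stromal cells of the bone marrow, plated cells that can form bone or fat. There were 3 arrays of wild-type mice (WT) and 3 of mice whose genotype label is a knockout of miR-188 (KO188), all C57BL/6 and 6 months old. The same osteogenic medium served both groups, with 10% fetal calf serum, dexamethasone at 100 nM, ascorbate-2-phosphate at 0.05 mM and beta-glycerophosphate at 10 mM. The titles speak of biological replicates without naming separate mice or cultures, so p-values measure only the spread between these samples. No label names a batch that holds both groups, so genotype and a culture difference shared by the KO188 samples cannot be told apart. In bulk RNA, more cells of a type and more RNA per cell cannot be told apart either. The labels do not describe the knockout allele or the tissues it affects. The mature miR-188-5p, encoded on chromosome X, is shown because the genotype label names it; its loss is not shown by the values below, and capitals mark its seed, bases 2 to 8 (RefSeq, GRCm38.p6).
miR-188-5p: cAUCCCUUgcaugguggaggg

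Levels are log2 probe set values, so a difference of 1 is a doubling of signal. The probe set of Mir188 read 7.15 ± 0.01 in WT and 7.08 ± 0.05 in KO188 (SD, n = 3 each; log2 change -0.06, limma adjusted p = 0.24). It passed with each array centred on its median (-0.11, adjusted p = 0.040) and with quantile normalization (-0.10, adjusted p = 0.029), and it is not known which part of the locus it reads. Across genes, Pearson's r was 0.9988 to 0.9993 within groups and 0.9909 to 0.9912 between them, and no array stood apart from its group. Over all genes limma called 29.8% at an adjusted p of 0.05, with 13.3% higher and 16.5% lower in KO188. Of the calls 44.5% were higher, and 30.8% were with each array centred on its median. The deposited table holds many equal values: 26.5% of tested genes, Irf3 and Irf9 among them, have the same value on more than 1 array of a group. The stromal identity of the cells was read from 15 measured markers: the collagen gene Col1a1 had a WT mean of 12.90, the growth factor receptor gene Pdgfrb 12.34 and Alpl, the alkaline phosphatase gene, 9.37. Of the 15, 9 rose and 2 fell, which is 73.3% called: Alpl (2.08) and Pdgfra (0.87) rose furthest, and Dcn, the decorin gene (-1.22), and Nt5e (-0.85) fell. The list mean ran from 9.43 to 9.49 over the WT arrays and from 9.63 to 9.64 over the KO188 arrays, and the part of these stromal marker changes in the Irf rises was not tested. Lepr (5.18), Lum (4.41) and Sp7 (6.41) had WT means below 6.73. That value is the 95th percentile of 1190 chemosensory receptor genes (Olfr and Vmn genes), and it serves below as a rough guide, named the receptor guide, to the signal of unexpressed genes.

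IRFs share an N-terminal DNA-binding domain that reads repeats of the letters GAAA, and IRF3, IRF5 and IRF7 act after they are phosphorylated. IRF3, present before infection, is phosphorylated by the kinases TBK1 and IKK-epsilon and turns on the first interferon-beta. Secreted interferon then acts on its receptor, and IRF9 enters the nucleus in the complex ISGF3, which switches on interferon-stimulated genes. Irf7 is one of these, and its protein amplifies the interferon-alpha genes. IRF1 is induced by interferon-gamma, and IRF2 competes with it for the same sites. IRF5 serves Toll-like receptor signalling in myeloid cells, while IRF4 and IRF8 direct the formation of lymphocytes, dendritic cells and macrophages.

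The promoters of all 8 genes are held in a RefSeq table (GRCm38.p6), as 11 windows of 300 bases that run from 250 bases before a gene's start to 50 after it. Both strands were searched for GAAANNGAA, the core of the interferon-stimulated response element. It was held by 8.56% of all 32851 promoters and by 1 of the 11 Irf windows, that of Irf2; counted by gene, by 9.76% of all genes and 1 of the 8. The Irf2 promoter holds GAAAATGAA 241 bases before the start. A match is not a shown binding site, and a window without one lacks only these letters. The windows of Irf7 and Irf2, each read 5′ to 3′ along the gene, are given to show the gene with the largest rise (no match) and the gene with the match; capitals mark it. They lie at chr7:141266375-141266674 (minus strand) and chr8:46739495-46739794 (plus strand).
Irf7: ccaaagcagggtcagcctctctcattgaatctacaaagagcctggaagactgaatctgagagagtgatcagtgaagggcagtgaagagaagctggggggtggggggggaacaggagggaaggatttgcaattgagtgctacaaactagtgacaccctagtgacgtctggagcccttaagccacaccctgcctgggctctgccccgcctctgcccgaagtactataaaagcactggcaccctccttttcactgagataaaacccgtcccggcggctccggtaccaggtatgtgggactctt
Irf2: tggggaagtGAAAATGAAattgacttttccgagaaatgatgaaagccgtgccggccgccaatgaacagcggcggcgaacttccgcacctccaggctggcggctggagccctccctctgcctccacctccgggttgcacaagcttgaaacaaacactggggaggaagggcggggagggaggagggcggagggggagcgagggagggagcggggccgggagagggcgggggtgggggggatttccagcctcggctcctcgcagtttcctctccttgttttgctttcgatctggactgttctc

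Irf7, the interferon-induced amplifier, had the largest difference of the 8. Its level was 8.67, 8.57 and 8.69 in WT replicates 1 to 3 and 12.23, 12.22 and 12.24 in KO188 replicates 1 to 3. The groups were far apart, with a gap of 3.53 between the highest WT and the lowest KO188 array. Irf7 rose 12.0-fold, a log2 change of 3.59 (SE 0.037, 95% interval 3.50 to 3.68, limma adjusted p = 2.9e-08). It ranked 13 among all 19938 genes by size of rise. Its promoter, shown above, does not hold the motif in the window searched.

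Irf9, the DNA-binding subunit of ISGF3, followed. WT arrays read 10.18, 10.18 and 10.18, and KO188 arrays 11.61, 11.52 and 11.57. No KO188 array came near the WT arrays. Irf9 rose 2.61-fold (log2 change 1.39, SE 0.030, adjusted p = 5.0e-07). Replicates 2 and 3 of WT hold an equal deposited value.

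Irf1 and Irf2, an activator and its competitor for the same DNA sites, rose together. Irf1 was at 10.24, 10.27 and 10.26 in WT and at 11.28, 11.27 and 11.24 in KO188, a rise of 2.01-fold (log2 change 1.01, SE 0.025, adjusted p = 9.3e-07). Irf2 was at 10.28, 10.28 and 10.23 in WT and at 11.07, 11.01 and 11.02 in KO188, a rise of 1.71-fold (log2 change 0.77, SE 0.029, adjusted p = 7.2e-06). For both genes every KO188 array lay above every WT array. Irf1 minus Irf2 was -0.01 ± 0.03 in WT against 0.23 ± 0.02 in KO188 (SD, n = 3 each), a difference of 0.23 between the changes. An exact two-sided permutation test over 20 assignments gave p = 0.10, the smallest possible with 3 against 3 arrays, and 0.15 adjusted over the 3 pairs compared. The second Irf1 probe set, which rests on 1 other transcript record, was dimmer. It read 7.85, 7.70 and 7.91 in WT and 8.20, 8.36 and 8.11 in KO188, a log2 change of 0.40 (SE 0.078, adjusted p = 0.0090 among all single-gene probe sets). Both Irf1 probe sets thus rose, by unequal amounts, and with their mean the order of Irf1 and Irf2 turned, to -0.07.

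Irf5, known for inflammatory cytokine induction in myeloid cells, was also higher. Its levels were 8.78, 8.69 and 8.77 in WT and 9.64, 9.60 and 9.64 in KO188. The groups did not overlap, and the rise was 1.84-fold (log2 change 0.88, SE 0.034, adjusted p = 7.9e-06). By the 95% intervals of the changes, Irf1 (0.95 to 1.07) and Irf5 (0.80 to 0.96) overlapped, and so did Irf5 and Irf2 (0.70 to 0.84), whereas Irf9 (1.31 to 1.46) lay above Irf1. Differences between these neighbours, other than Irf1 and Irf2, were not tested.

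**Figure D1:**
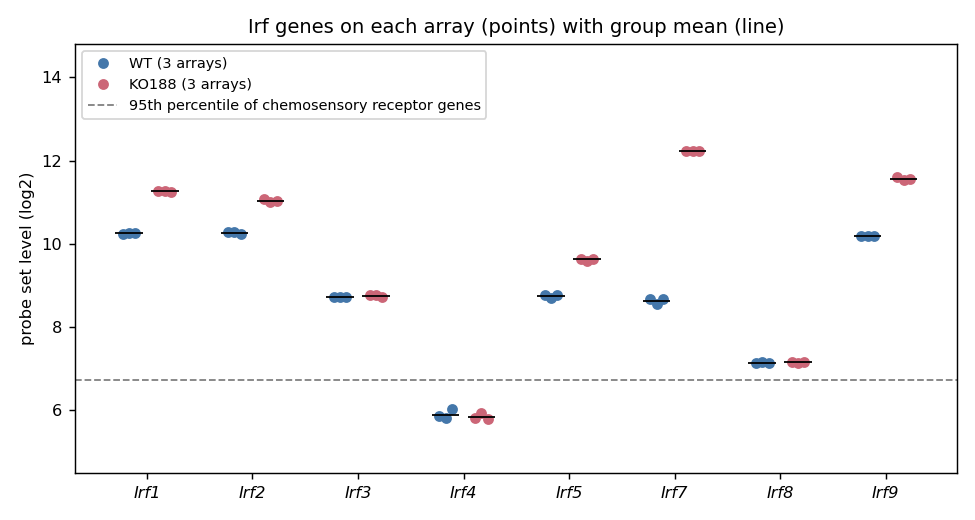
Log2 probe set level of the 8 Irf genes on each array, WT in blue and KO188 in red, with the group mean as a line and the 95th percentile of receptor genes (6.73) dashed. Irf7 moves from between 8.57 and 8.69 to between 12.22 and 12.24, while Irf3, Irf4 and Irf8 show no such step; each gene has its own probes, so levels are not compared between genes.

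Irf3, the constitutive sensor-driven member, did not pass. It was listed at 8.72 on all 3 WT arrays, as 1 equal value, and at 8.78, 8.77 and 8.73 in KO188. Every KO188 array lay above WT, but by as little as 0.01, and 41.5% of all tested genes had groups that did not overlap. The log2 change was 0.04 (95% interval -0.02 to 0.10, adjusted p = 0.32), and it turned to -0.0043 with each array centred on its median and to -0.01 with quantile normalization. The probe sets of Irf3 and Irf7, whose proteins both induce interferon-beta, parted between the groups. Irf7 minus Irf3 was -0.08 ± 0.07 in WT against 3.47 ± 0.03 in KO188 (SD, n = 3 each; difference 3.55, exact two-sided permutation p = 0.10, the smallest possible, and 0.15 adjusted over 3 pairs).

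Irf4 and Irf8, the members of blood cell development, did not pass either. Irf4 was at 5.86, 5.81 and 6.03 in WT and at 5.81, 5.95 and 5.79 in KO188, all under the receptor guide of 6.73 (log2 change -0.05, 95% interval -0.22 to 0.11, adjusted p = 0.63). At such levels changes are compressed. Irf8, which in mice also restrains osteoclast formation, was at 7.14, 7.17 and 7.13 in WT and at 7.17, 7.14 and 7.17 in KO188 (log2 change 0.01, 95% interval -0.05 to 0.07, adjusted p = 0.79). For both genes the groups overlapped. Irf8 minus Irf4 was 1.24 ± 0.13 in WT against 1.31 ± 0.10 in KO188 (SD, n = 3 each; exact two-sided permutation p = 0.60, also 0.60 adjusted over 3 pairs). Without WT replicate 3 the change of Irf4 was 0.01 in place of -0.05.

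Counted together, 5 of 8 Irf genes were called by limma, against 29.8% of all tested genes, and at an unadjusted p under 0.05 the count was also 5. All 5 were higher in KO188, a direction called for 13.3%. Groups did not overlap in 6 of 8, all with KO188 above, against 41.5% of tested genes in either direction and 18.8% with KO188 above. The median change of the 8 genes was 0.82, and the median over all tested genes was -0.01. Irf7, Irf9 and Irf1 changed by more than 1 on the log2 scale, a rise that 1.10% of tested genes exceeded. The same 5 genes were called under 14 other settings, which changed the scaling, the gene filter, the probe set rule, the spread model or the arrays used. A further one, which left out genes with equal values within a group, removed Irf9 from the fit, and the other 4 were called.

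**Figure D2:**
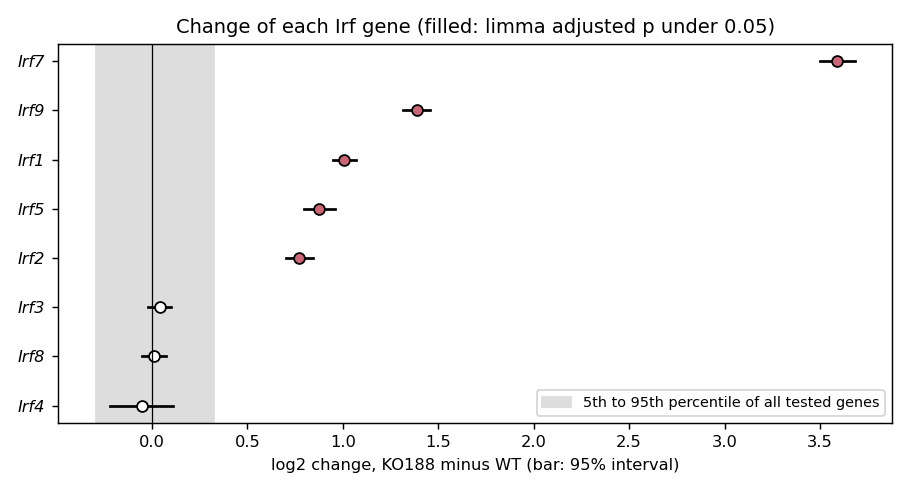
Log2 change, KO188 minus WT, of each Irf gene with its 95% interval from limma; filled points passed an adjusted p of 0.05 and the grey band spans the 5th to 95th percentile of changes over all tested genes (-0.29 to 0.33). The 5 called genes lie right of the band, from 0.77 (Irf2) to 3.59 (Irf7), and Irf3, Irf8 and Irf4 lie inside it.

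Irf4, Irf5 and Irf8 are known best from blood cells, so markers of such cells were read beside them. Of 20 macrophage markers 2 rose, Mertk (0.79), a receptor for dying cells, and Mpeg1 (1.32), which encodes a pore-forming protein, and 0 fell, with 3 lower at an unadjusted p under 0.05 (Cd14, Itgam and Laptm5) and Cd68 higher at that level (0.15). The share of the list that rose, 10%, is near the 13.3% of all tested genes. The mean level of that list ran from 6.55 to 6.56 over the WT arrays and from 6.60 to 6.69 over the KO188 arrays. The median change of its genes was -0.02. The defining genes were dimmer than the receptor guide on average in WT and in KO188: Ptprc, the pan-leukocyte antigen gene, at 6.25 and 6.23, Csf1r, the macrophage growth factor receptor gene, at 6.29 and 6.25, and Adgre1, the F4/80 gene, at 5.24 and 5.26. In all, 15 of the 20 macrophage markers had 6-array means under that guide. Of 13 B and plasma cell markers and 13 T and NK cell markers 0 passed limma's test, against 29.8% of all tested genes, with 1 in each list at an unadjusted p under 0.05 (Pax5, 0.21, and Ncr1, -0.13). Their list means overlapped between groups, at 6.14 to 6.20 in WT and 6.12 to 6.22 in KO188 for B and plasma cells, and at 6.09 to 6.12 and 6.03 to 6.13 for T and NK cells. Of 15 dendritic cell markers, Bst2 rose (2.39) and Cd74, the invariant chain gene, fell (-0.29). The share called was 13.3%, against 29.8% of all tested genes. The mean of the dendritic list, Bst2 included, ran from 7.10 to 7.13 in WT and from 7.17 to 7.26 in KO188. The median change of its genes was -0.03. Bst2, the tetherin gene, is itself interferon-induced and was also on the list of ISGF3 targets. No marker was at 0, since such arrays give a value to every probe set. The part of the macrophage and dendritic markers in the rise of Irf5 was not tested.

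**Figure D3:**
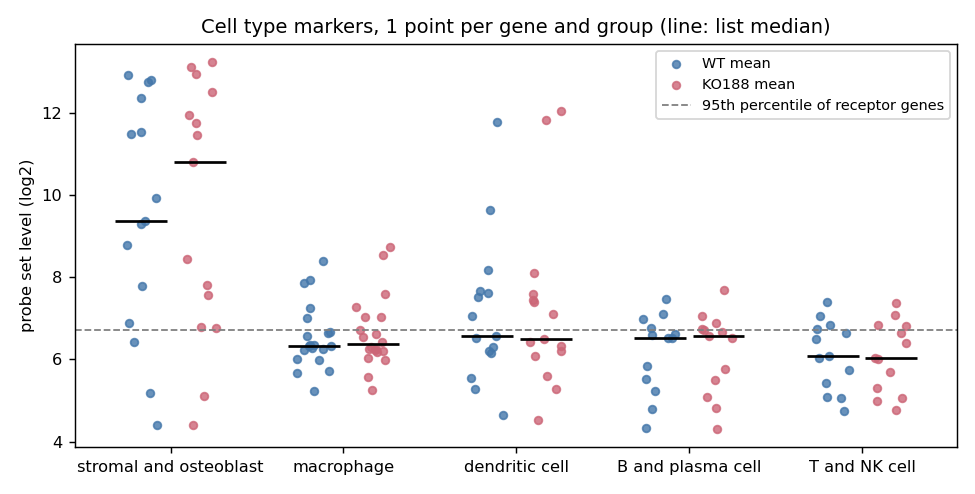
Group mean log2 level of each measured marker gene for 5 cell types, WT in blue and KO188 in red, with the list median as a line and the receptor guide (6.73) dashed. Most markers of blood cells lie near or under the guide in both groups, while stromal markers such as Col1a1 (12.90 in WT) lie above it; the dendritic marker that steps up is Bst2 (9.64 to 12.03).

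Upstream of the IRFs, the interferon ligands were read first. Over all pathway lists below, 66 of 121 distinct genes rose and 7 fell, against 13.3% and 16.5% of tested genes. Of 9 measured interferon genes 2 rose and 0 fell (0 lower at an unadjusted p under 0.05 by limma). The share called was 22.2%, against 29.8% of all tested genes. Ifnb1, the interferon-beta gene that IRF3 and IRF7 induce, was at 6.32 ± 0.04 (SD, n = 3) in WT and 7.47 ± 0.05 in KO188 (log2 change 1.16, adjusted p = 3.3e-06). Ifna4, an early-induced interferon-alpha gene, was at 6.12 ± 0.13 and 7.94 ± 0.19 (log2 change 1.82, adjusted p = 4.6e-05). The WT levels of both lie under the receptor guide, so the sizes are inexact, and interferon-alpha genes are near-identical copies whose signal can be shared. Both genes fall under the 50th percentile of levels, so with dim genes left out neither was in the fit. Under that filter 0 ligand genes were called, though Ifna5 and Ifnl2 stayed in. The other 7, among them Ifng (-0.09, adjusted p = 0.25), did not pass.

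The receptor and kinase genes that lead to IRF9 moved little, apart from Stat2 and Jak2. Of 8 measured genes 2 rose and 2 fell, 50% called against 29.8% of all tested genes. Stat2, the ISGF3 partner of IRF9, rose 5.33-fold, from 9.64 ± 0.09 to 12.06 ± 0.02 (SD, n = 3 each; limma adjusted p = 2.9e-07). Jak2, the kinase of the interferon-gamma receptor, rose 1.70-fold (log2 change 0.77, adjusted p = 5.8e-06). The receptor genes Ifngr2 (-0.15, adjusted p = 0.0049; -0.10 with quantile normalization) and Ifnar1 (-0.14, adjusted p = 0.039) fell. The Ifnar1 call ended with WT replicate 1 left out (adjusted p = 0.13), with WT replicate 3 left out (0.12), with either of KO188 replicates 2 and 3 left out (0.11 each), and with all probe sets in the adjustment (0.070). Tyk2 (0.07), Ifnar2 (0.03), Ifngr1 (-0.03) and Jak1 (0.02) did not pass, with adjusted p from 0.31 to 0.66.

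Adaptors and kinases that activate IRF3, IRF5 or IRF7 rose in 10 of 17 measured genes and fell in 0, with a median of 0.12. The share called was 58.8%, against 29.8% of all tested genes. Myd88, the adaptor through which Toll-like receptors reach IRF5 and IRF7, rose 1.84-fold. The IRF3 kinase genes Ikbke and Tbk1 rose 1.51-fold and 1.34-fold, and Sting1, the adaptor for cytosolic DNA, rose 1.27-fold. Mavs, the adaptor for cytosolic RNA, did not pass (-0.05, adjusted p = 0.35). All 10 rises on this list were under 1 on the log2 scale; at an unadjusted p under 0.05, 1 gene (Irak1, -0.11) was lower.

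Among 13 cofactor genes 3 rose and 0 fell (0 lower at an unadjusted p under 0.05 by limma). This was 23.1% called, against 29.8% of all tested genes. Nlrc5, the transactivator of class I antigen presentation, rose 1.63-fold (log2 change 0.70, but 1.49 with its probe sets averaged), and Batf2, a leucine zipper partner of IRF1, rose 1.42-fold. Irf2bp1, a corepressor that binds IRF2, was higher by 0.13 (adjusted p = 0.033), a call lost with median centring (change 0.09, adjusted p = 0.15), quantile normalization (0.066), all probe sets in the adjustment (0.060), any 1 WT array left out (0.066 to 0.10) or KO188 replicate 2 left out (0.056). The partners of IRF4 and IRF8 in blood cells did not pass: Spi1 was at 6.22 in WT and 6.27 in KO188, and Ikzf1 at 6.74 and 6.75.

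Inhibitors of the pathway rose in 7 and fell in 2 of 14 measured genes, 64.3% called against 29.8% of all tested genes. Usp18, which damps signalling at the interferon receptor, rose 6.40-fold, and Trim21, a ubiquitin ligase gene, rose 5.17-fold. Socs1, an inhibitor of Janus kinases, rose 1.66-fold and Otud5, a deubiquitinase gene, rose 1.41-fold. The phosphatase genes Ptpn6 (-0.13, adjusted p = 0.041) and Ptpn11 (-0.13, adjusted p = 0.028) were lower. Neither call held when WT replicate 1, WT replicate 3 or KO188 replicate 3 was left out (adjusted p = 0.079 to 0.13). Of all settings beside the main one that gave a value, these 3 included, Ptpn6 passed in 7 of 14 and Ptpn11 in 8 of 15. Their limma adjusted p ran up to 0.13 and 0.095.

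Known targets were grouped by a factor known to act on them. A gene can stand on more than 1 list or answer to factors of another list, and Irf genes were left out of the counts. Which factor acted on these genes here was not tested. All 13 measured targets of IRF3 or IRF7 rose, against 13.3% of all tested genes, with a median of 2.20 and a range of 1.16 to 3.43. Zbp1, a nucleic acid sensor gene, rose 10.8-fold, Dhx58, an RNA helicase gene, 10.2-fold, Oasl1 5.75-fold and Ifit2, which encodes an RNA-binding antiviral protein, 4.59-fold. All 16 measured targets of ISGF3 rose as well, with a median of 2.45 and a range of 0.76 to 4.82. Mx1 and Mx2, the antiviral GTPase genes, and Oas2 led this list at 28.3-fold, 13.4-fold and 17.2-fold. Mx1 (5.83) and Mx2 (6.62) lay under the receptor guide in WT, so their folds are inexact. Promoters were held for 10 genes of each of these lists, and 6 of 10 in each had the GAAANNGAA core, against 9.76% of all genes. The genes were listed as known targets, so this share describes the lists and is not a result of these arrays. Of the genes with a promoter, the core was found in 3 of 9 IRF1 targets, 4 of 11 IRF4 or IRF8 targets, 0 of 5 IRF5 targets, 3 of 9 ligands, 3 of 11 inhibitors, 2 of 15 adaptors and kinases, 1 of 8 cofactors and 1 of 8 receptor and kinase genes.

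Targets of IRF1 rose in 11 and fell in 2 of 17 measured genes, with a median of 0.70. The share called was 76.5%, against 29.8% of all tested genes. Cxcl9, a T cell chemokine gene, rose 12.4-fold, and Cd274, the PD-L1 gene, rose 8.40-fold. Tap1, a peptide transporter gene, rose 7.85-fold and the immunoproteasome gene Psmb8 5.01-fold. The 2 that fell were Ptgs2 (-0.19), a prostaglandin synthase gene, and Lox (-0.10), a collagen cross-linking enzyme gene, whose call ended with quantile normalization (-0.04, adjusted p = 0.31), with all probe sets in the adjustment (0.052), with the replicate block (0.089) and with any array but KO188 replicate 1 left out (0.072 to 0.092). Nos2 (0.08), Ciita (0.05), Il27 (0.01) and Il12b (-0.02), which IRF1 serves in macrophages and other immune cells, did not pass.

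Targets known from IRF4, IRF8 and IRF5 in blood cells were read last. Of 13 IRF4 or IRF8 targets 5 rose and 1 fell, 46.2% called against 29.8% of all tested genes, with a median of 0.08. Ifi205 rose 7.07-fold; it belongs to the interferon-induced p200 family, whose near-identical copies can share signal. Bcl6 (0.49), a repressor gene, and Cst3 (0.22), a protease inhibitor gene, rose, as did Klf4 (0.39) and Cybb (0.18), a phagocyte oxidase gene whose levels lay under the receptor guide, and Id2 (-1.12), which restrains helix-loop-helix factors, fell. Of 8 cytokine genes known as IRF5 targets 2 rose, 25% against the 29.8% called over all genes: the chemokine gene Ccl5 2.28-fold, which is also on the list of IRF3 or IRF7 targets, and Il6 2.01-fold. The other 6, Tnf, Il1b, Il12a, Il12b, Il23a and Ccl4, did not pass, with changes from -0.02 to 0.13, and all 6 had mean levels under the receptor guide.

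**Figure D4:**
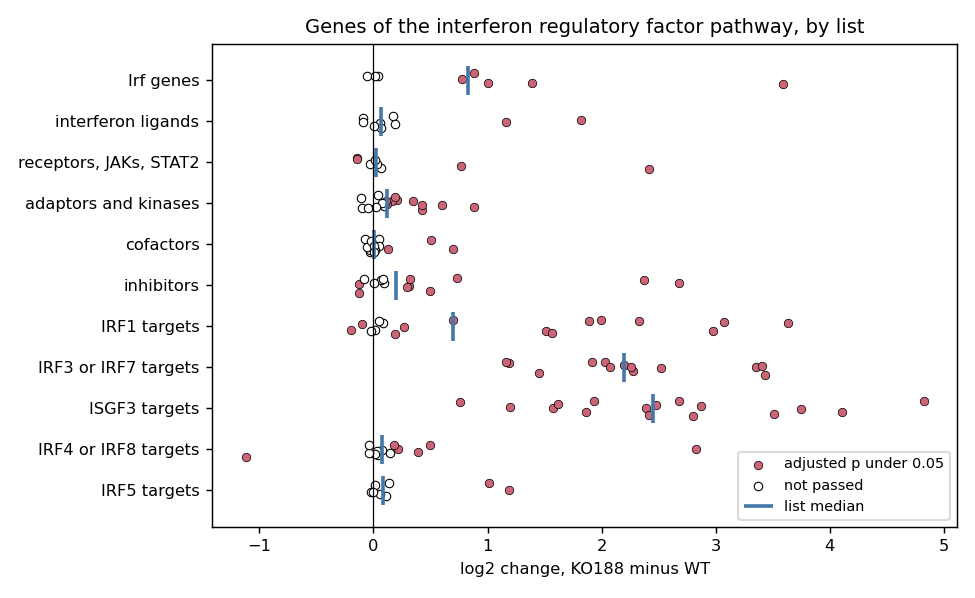
Log2 change, KO188 minus WT, of every measured gene on each list, with red points past an adjusted p of 0.05, white points not past it and the list median as a blue line. Targets of IRF3 or IRF7 (median 2.20) and of ISGF3 (median 2.45) lie wholly right of 0, while receptors, JAKs and STAT2 (median 0.02), cofactors (0.01) and IRF5 targets (0.08) centre near it.

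The genes whose levels ran most like each called Irf gene over the 6 arrays were found by Pearson's r, as a description, since the step between groups dominates it. Irf7 was most like Znfx1, Daxx and Phf11d (r = 0.99998, 0.99995 and 0.99995), and 595 genes had r over 0.99 with it. Irf9 was most like Ccrl2, Fat4 and Parp11, and Irf1 like Ccn3, Dtx3l and Tgfb2. For Irf2 they were Il1rn, Rbm43 and Postn, and for Irf5 Gpnmb, Myd88 and G3bp2. With 544 to 609 genes over 0.99 for each of the 5, the order among them has no weight.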

How the data were processed

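The authors' deposited values are log2 levels of 35556 probe sets on 6 arrays. Per the submitters' processing notes the tools were Affymetrix Expression Console, RMA and Partek, without versions; per the labels' protocols each array took 6 ug of RNA. RMA corrects background, equalises arrays and works in log2, which compresses dim genes. The medians of the deposited arrays still ran from 7.43 to 7.50. The median change over all tested genes was -0.01 as deposited and -0.05 with each array centred on its median. The number of arrays limits the precision. Of 23410 annotated probe sets 21789 have 1 symbol, 1621 have several and 0 have none; those with several were not named.

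Groups and replicate numbers came from the sample titles. KO188 and WT were compared with limma 3.58.1 (R 4.3.3; lmFit, eBayes without trend, all 6 arrays, no covariate), with Benjamini-Hochberg adjustment over 19938 genes and a threshold of 0.05. The script was tested on simulated data with independent normal noise for each gene. That simulation did not model the equal values within a group, so it checks the code and not the fit to these data. Pairs of Irf genes were compared with exact permutation tests. Same-numbered samples did not deviate together (r = 0.02, 0.01 and -0.03), so replicate numbers were not taken as pairs. Figures were drawn with matplotlib 3.10.9.

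The members, lists, receptor guide and rules were chosen with earlier results of these data known. Named are all Irf genes, up to 4 called genes per pathway list by lowest p, every call of a list with 5 or fewer, all measured genes of the receptor and kinase list, and 3 genes most like each called Irf gene; marker genes and other uncalled or falling genes were named after their values were seen. Protein sequences were not used here, and a planned second promoter motif is not reported here.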

Additional observations from a re-analysis of the deposited data

How the results depend on the processing

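The rises of Irf1, Irf2, Irf5, Irf7 and Irf9 kept their direction and passed under 14 other settings, with changes of 0.70 to 1.02 for Irf1, 0.73 to 0.78 for Irf2, 0.83 to 0.89 for Irf5, 3.55 to 3.61 for Irf7 and 1.34 to 1.41 for Irf9. Irf3, Irf4 and Irf8 passed under none that gave a value; the filter on dim genes left out Irf4 and Irf8. Centred on array medians, Irf3 changed by -0.0043 and Irf8 by -0.033, and the uncalled Ifnar2 by -0.017 and Jak1 by -0.027; with quantile normalization Irf3 changed by -0.012 and Irf8 by -0.027. With 1 array left out Irf4 ran from -0.102 to 0.011, turned by WT replicate 3, and Irf8 minus Irf4 from -0.0087 to 0.12. With probe sets of a gene averaged, Irf1 minus Irf2 was -0.069, since the dimmer Irf1 probe set rose less. With genes below the 50th percentile left out 0 ligand genes were called. Calls ran from 4835 to 7683 over the settings, which did not all test the same features. The highest count came with all probe sets in the adjustment, and 6603 came with every single-symbol probe set tested on its own. Both are counts of probe sets, not genes. With genes below the 50th percentile left out, 6217 of the fewer genes tested were called. With 1 array left out, calls ran from 4835 to 5553.

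With the replicate number as a block 5019 genes were called in place of 5937, and the same 5 Irf genes passed (Irf7 3.59, Irf9 1.39, Irf1 1.01, Irf5 0.88, Irf2 0.77). It ended the calls of Lox (adjusted p = 0.089) and Ptpn11 (0.080). The samples share only a number, so the block is no pairing. Leaving out genes with equal values within a group, an alternative chosen after seeing the data, removed Irf3 and Irf9 from the fit, and 4 of the remaining 6 Irf genes passed.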
